A study of Mus musculus with 12 samples.

Results

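The tubulin mRNAs described here are 10 genes, *Tuba1a*, *Tuba1b*, *Tuba4a*, *Tubb2a*, *Tubb2b*, *Tubb3*, *Tubb4a*, *Tubb4b*, *Tubb5* and *Tubg1*, taken by name from the 55573 genes of the count table. All 10 were among the 17126 genes with enough reads to be tested. The study asked which RNAs are bound by each of the YTHDF proteins in neurons. For this, endogenous YTHDF1, YTHDF2 or YTHDF3 was immunoprecipitated from lysates and the RNA bound to it was sequenced (RIP-seq), so each RIP library holds the RNA that came down with 1 protein and each Input library holds the total RNA of the lysate, with no antibody. The 12 libraries form 4 groups of 3, Input and 1 RIP group for each protein. All came from primary hippocampal neurons of neonate C57BL/6 mice kept in culture for 14 days, and the labels give no genotype or treatment by which the groups differ. According to the methods, hippocampi of single litters were pooled, cytosine arabinoside was added to limit glia, and for each replicate the lysate of 3 wells was pooled and divided among the 3 RIPs with 1 shared input. The methods call the 3 replicates biological. A control-antibody RIP was not analysed here, so a value above or below Input is relative to other RNAs and not to nonspecific recovery on beads.

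Microtubules are built from dimers of α- and β-tubulin, and γ-tubulin nucleates them. In neurons they form the tracks along which RNA granules, organelles and vesicles travel through axons and dendrites, and several α- and β-tubulin genes are expressed together, some of them mainly in neurons. The level of α- and β-tubulin mRNA is itself under control, since free tubulin dimers lead to decay of the mRNAs while they are translated. YTHDF proteins are cytoplasmic readers of N6-methyladenosine (m6A), the most common internal mark of mRNA, which is found mostly near stop codons and in long internal exons.

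On the GRCm38 build, in the coordinates of the count table, *Tuba1a* (chr15:98949837-98953703, minus strand) and *Tuba1b* (chr15:98931425-98934565, minus strand) lay side by side, and so did *Tubb2a* (chr13:34074274-34078007, minus strand) and *Tubb2b* (chr13:34126748-34130466, minus strand). *Tuba4a* was at chr1:75214228-75219865 on the minus strand. *Tubb3* was at chr8:123411424-123422015 on the plus strand. *Tubb4a* and *Tubb5* shared a chromosome, at chr17:57080066-57087782 and chr17:35833921-35838306, both on the minus strand. *Tubb4b* was at chr2:25222160-25224702 on the minus strand. *Tubg1* was at chr11:101119938-101126419 on the plus strand.

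The tubulin genes are so alike in their coding parts that many reads could not be assigned to a single gene. The last 60 coding bases, stop codon included, are shown for 4 β-tubulin genes because they show a pair of near-identical genes beside 2 that can be told apart. They were read from GENCODE M21 transcripts (GRCm38) and lie in the coding part of the last exon. Capitals mark bases that differ from *Tubb2a*.
Tubb2a: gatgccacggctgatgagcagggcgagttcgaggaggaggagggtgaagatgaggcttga
Tubb2b: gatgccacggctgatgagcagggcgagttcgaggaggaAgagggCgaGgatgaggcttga
Tubb3: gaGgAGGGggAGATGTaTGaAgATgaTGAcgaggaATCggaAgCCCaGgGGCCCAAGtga
Tubb4a: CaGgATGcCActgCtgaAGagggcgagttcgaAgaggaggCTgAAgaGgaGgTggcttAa
*Tubb2b* (chr13:34127471-34127530, minus strand) differed from *Tubb2a* (chr13:34074468-34074527, minus strand) at 3 bases. *Tubb3* (chr8:123421623-123421682, plus strand) differed at 35 bases and *Tubb4a* (chr17:57080690-57080749, minus strand) at 19, set side by side from the stop codon. No gaps were allowed, so like stretches that are shifted by a codon are marked as different. The capitals and counts are thus not those of an alignment. These ends encode the acidic tails that reach out from the microtubule surface and carry most tubulin modifications, and they are the part by which tubulin isotypes differ most.

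The likeness went beyond the tails. Of all distinct stretches of 50 bases, the length of 1 sequenced mate, in the transcripts of *Tuba1a*, 72.9% also occurred in the transcripts of another gene, and for *Tuba1b* the share was 66.7%. The gene that shared most with each of them was *Tuba1c*. The share was 49.6% for *Tubb2a* and 36.9% for *Tubb2b*, mostly with each other, and 37.8% for *Tubb4b*, mostly with its pseudogene *Tubb4b-ps1*. *Tubg1* shared 11.1%, nearly all of it with *Tubg2*. By contrast, *Tubb3* shared none, and *Tuba4a*, *Tubb4a* and *Tubb5* shared at most 0.807%. Because the authors counted a read in full for every gene it matched, the values of *Tuba1a* and *Tuba1b*, and those of *Tubb2a* and *Tubb2b*, rest in part on the same reads. When *Tuba1a*, *Tuba1b* and *Tuba1c* were summed as 1 feature and *Tubb2a* and *Tubb2b* as another, no call on these 4 genes was gained or lost in any of the 6 comparisons. A sum of this kind counts a shared read once for each gene it matched. It therefore cannot show how far shared reads set these calls, which was not tested.

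The libraries held between 6020072 and 38909592 counts, those of YTHDF2 RIP at most 9259893, and no 2 libraries were identical. All 6 neuronal markers were present in every group, and their summed level lay between 605 and 2440 CPM (reads per 1000000 reads of the library, scaled by the trimmed mean of M-values, TMM). The 6 astrocyte markers were present as well. Their sum was 259, 1258 and 2524 CPM in Input replicates 1, 2 and 3, so the cultures differed in glial RNA, and it was 194, 854 and 1557 CPM in the YTHDF3 RIP libraries of the same numbers. The 6 microglial markers summed to at most 6.53 CPM, and the 6 oligodendrocyte markers to at most 109 CPM. In such bulk samples, fewer cells of a type and less RNA per cell cannot be told apart.

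In Input, tubulin mRNAs made up 0.759% ± 0.178 of all counts (SD, n = 3). Compared per kilobase of exon, *Tuba1a*, the main α-tubulin of young neurons, had the highest Input level, 1258 ± 365 CPM per kilobase (SD, n = 3). The class II β-tubulins followed, *Tubb2a* at 770 ± 108 and *Tubb2b* at 630 ± 109 CPM per kilobase, with *Tuba1b*, an α-tubulin of most cell types, at 602 ± 170. Neighbours among these first 4 overlapped in their libraries. A gap that no library bridged separated them from the neuronal β-tubulin *Tubb3* (195 ± 68.5), the class I β-tubulin *Tubb5* (178 ± 57.3) and *Tubb4a* (127 ± 38.3), which again overlapped their neighbours. The first 4 shared 36.9% to 72.9% of their 50-base stretches with other genes, and a read was counted in full for each match. *Tubb3*, *Tubb5* and *Tubb4a* shared at most 0.184%. How much shared reads added to the levels, the gap and the share of all counts was not tested. *Tubb4b* stood alone at 64.8 ± 6.28 CPM per kilobase. *Tuba4a* (24.8 ± 12.9) and the γ-tubulin *Tubg1* (13.4 ± 1.05) came last and overlapped. In every RIP the order differed at the top, where *Tubb2a* came first, at 919 ± 154 CPM per kilobase in YTHDF1, 514 ± 92.5 in YTHDF2 and 670 ± 78.3 in YTHDF3 RIP, but it was clear of the next member in all libraries in YTHDF3 RIP alone.

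**Figure D1:**
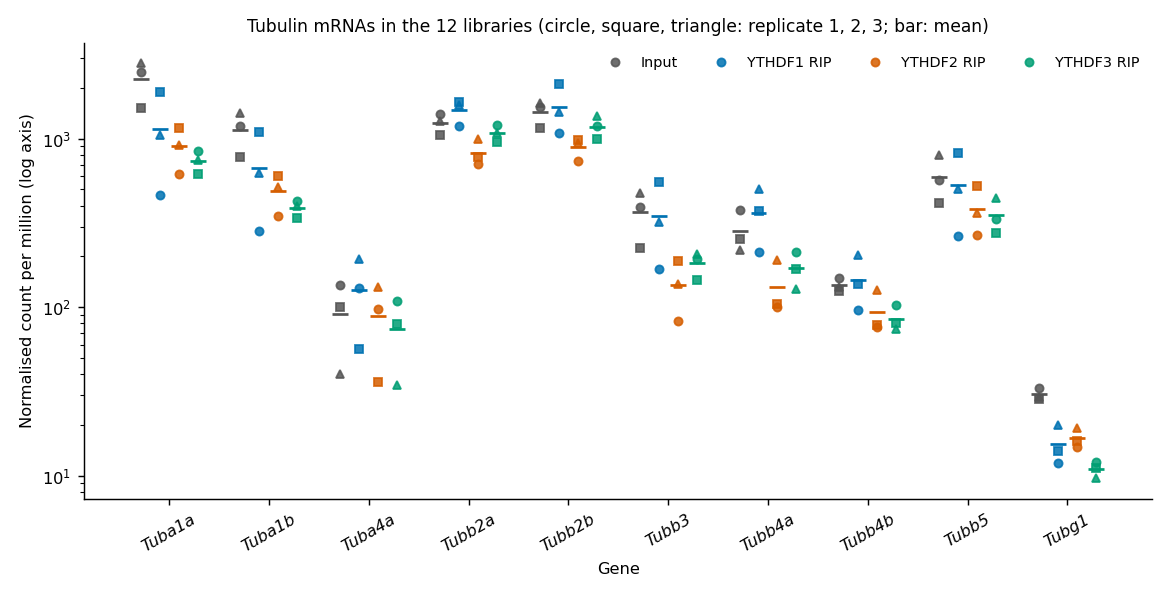
Normalised CPM (log axis) of the 10 tubulin mRNAs in each of the 12 libraries, by group (colour) and replicate number (shape), with a bar at the mean of each group. *Tubg1* is lower in every RIP library than in every Input library, while *Tuba4a* spreads over 34.6 to 194 CPM with all groups overlapping.

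Against Input, no tubulin mRNA was called enriched in any RIP in the reported fit, and those called were all lower. A gene was called at a log2 fold change of at least 0.32 in either direction and an adjusted p of at most 0.05 (edgeR quasi-likelihood test, Benjamini-Hochberg over all 17126 genes). In YTHDF1 RIP, 0 of 10 members were called higher, where 27.2% of all tested genes were, and 1 of 10 (*Tubg1*) was called lower, against 25.8% of all genes. The log2 fold changes centred on no difference, with a median of 0.01 beside 0.02 for all genes, and 5 of 10 were negative. In YTHDF2 RIP, 0 were called higher (15.7% of all genes) and 5 of 10 lower (19.0% of all genes), namely *Tuba1a*, *Tuba1b*, *Tubb3*, *Tubb4a* and *Tubg1*. All 10 log2 fold changes were negative, with a median of -0.78 beside 0.02 for all genes. In YTHDF3 RIP, 0 were called higher (16.4%) and 3 of 10 lower (23.0%), *Tuba1a*, *Tuba1b* and *Tubg1*. Here too all 10 were negative, with a median of -0.75 beside 0.05 for all genes. The 3 comparisons share the Input libraries, so they are not separate evidence. Of protein-coding genes of over 1500 and up to 2000 bases, 50.5%, 32.4% and 48.9% were called lower in the 3 RIPs in turn. Over 2000 and up to 3000 bases it was 37%, 26.7% and 34.7%, and over 3000 and up to 5000 bases 23.6%, 17.3% and 18%. All members fall in these classes, where 3.32% to 22.2% of genes were called higher. The share of members called lower was below every class in YTHDF1 RIP, above every class in YTHDF2 RIP and between them in YTHDF3 RIP. This was not tested. Counted without the adjustment, 2, 7 and 5 members had p below 0.05 in YTHDF1, YTHDF2 and YTHDF3 RIP, and DESeq2 called 2, 7 and 3 lower and 0 higher. Over all 17126 genes DESeq2 called 4816, 3643 and 4090 lower and 4689, 2949 and 3428 higher.

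These counts changed when single libraries were left out and when gene length was taken into account. In YTHDF2 RIP, 1 member (*Tubg1*) was called without Input replicate 1 or without YTHDF2 RIP replicate 1, 2 without Input replicate 3, and 3 without YTHDF2 RIP replicate 2 or 3. It was 7 when any of the 3 YTHDF1 RIP libraries was left out. Those libraries are not in this comparison, but the spread of each gene, the scaling and the filter were taken from all 12 libraries. The part of each in this change was not tested. The calls over all genes moved as well. They were 2412 lower of 17287 genes without YTHDF2 RIP replicate 1 and 3868 of 17175 without YTHDF1 RIP replicate 2. In the reported fit they were 3247 of 17126. In YTHDF3 RIP, *Tubg1* was the 1 member called without YTHDF3 RIP replicate 2 (2991 of 17002 genes lower), whereas 5 were called without YTHDF1 RIP replicate 1 (4147 of 17220). In YTHDF1 RIP, *Tuba1a* and *Tuba1b* were called lower as well when YTHDF1 RIP replicate 2 was left out, which made 3 (5136 of 17175 genes lower). When the trend of each library with exonic length was removed, 1 member was called lower in YTHDF1 RIP (*Tubg1*; 24.6% of all genes) and 1 higher (*Tubb2a*; 22.2%), none in either direction in YTHDF2 RIP (16.4% of all genes lower, 13.0% higher), and 1 lower in YTHDF3 RIP (*Tubg1*; 16.8% lower, 15.2% higher).

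**Figure D2:**
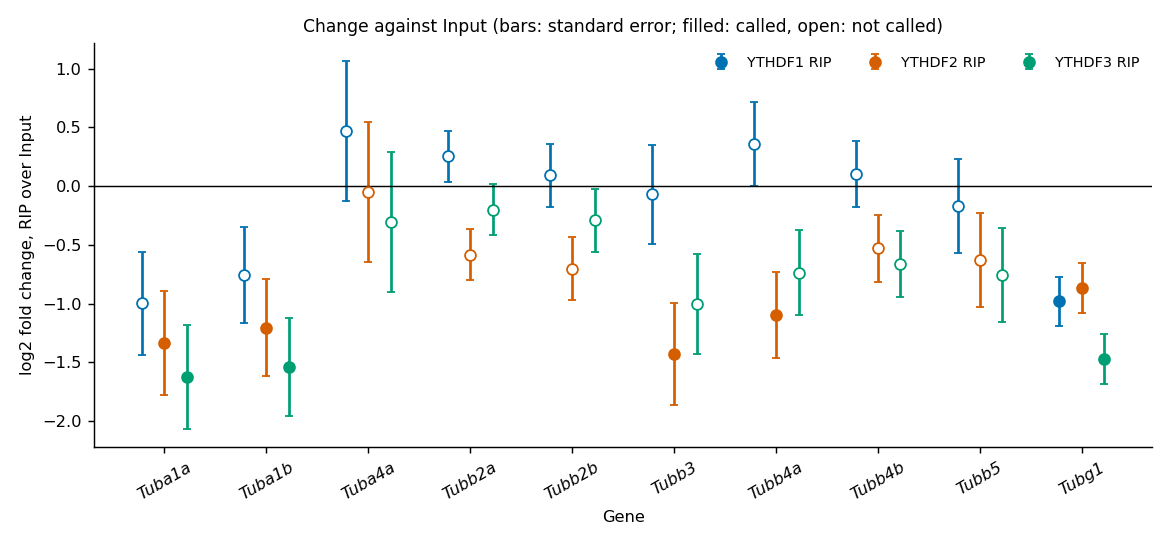
Log2 fold change of each tubulin mRNA in the YTHDF1, YTHDF2 and YTHDF3 RIP over Input, with its standard error. Filled points passed the call (log2 fold change of at least 0.32 in size, adjusted p of at most 0.05). All YTHDF2 and YTHDF3 values lie below 0, and *Tubg1* is filled in all 3 RIPs.

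Among the α-tubulins, *Tuba1a* and *Tuba1b* were the members with the lowest YTHDF3 values, while *Tuba4a* was not called in any RIP. *Tuba1a* stood at 2484, 1530 and 2794 CPM in Input replicates 1, 2 and 3 and at 850, 618 and 744 CPM in YTHDF3 RIP. The groups did not overlap, and its log2 fold change was -1.62 ± 0.44 (SE, adjusted p = 0.0128), a 3.08-fold lower level. In YTHDF2 RIP it stood at 617, 1164 and 918 CPM, again below every Input library, with a log2 fold change of -1.33 ± 0.44 (adjusted p = 0.0351). The YTHDF1 RIP libraries were far apart, at 465, 1887 and 1053 CPM, and replicate 2 reached into the range of Input. The log2 fold change there was -1.0 ± 0.44 (adjusted p = 0.0739) and was not called. *Tuba1b* followed the same course at a lower level. It held 782 to 1410 CPM in Input, 284 to 1093 in YTHDF1 RIP, 347 to 603 in YTHDF2 RIP and 338 to 425 in YTHDF3 RIP. Its log2 fold changes were -0.76 ± 0.41 (adjusted p = 0.142), -1.20 ± 0.41 (adjusted p = 0.0417) and -1.54 ± 0.42 (adjusted p = 0.0122), so it fell in YTHDF2 and YTHDF3 RIP. Across the 12 libraries the log2 CPM of *Tuba1a* and *Tuba1b* had a Pearson correlation of 0.993, a value to be read with their shared reads in view. The YTHDF2 calls on both genes were lost without Input replicate 1 or 3 and without YTHDF2 RIP replicate 1 or 3 (adjusted p of *Tuba1a* 0.0807, 0.103, 0.126 and 0.0861), and that on *Tuba1b* also without YTHDF2 RIP replicate 2 or any YTHDF3 RIP library (adjusted p 0.052 to 0.0586). The YTHDF3 calls were lost without YTHDF3 RIP replicate 2 (adjusted p 0.0564 and 0.0533), and in YTHDF1 RIP both genes were called without YTHDF1 RIP replicate 2 (log2 fold changes -1.66 and -1.39, adjusted p 0.0055 and 0.00906). Without the length trend, *Tuba1a* was at -0.99 in YTHDF2 RIP (adjusted p = 0.0776) and -0.97 in YTHDF3 RIP (adjusted p = 0.0791), past the call in neither.

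*Tuba4a*, whose product lacks the encoded terminal tyrosine of the other α-tubulins, varied more between replicates than between groups. It held 135, 99.9 and 40.2 CPM in Input, 129, 56.8 and 194 in YTHDF1 RIP, 97.7, 36.1 and 131 in YTHDF2 RIP and 109, 79.8 and 34.6 in YTHDF3 RIP. In each group 1 library was far below the others, replicate 3 in Input and YTHDF3 RIP and replicate 2 in YTHDF1 and YTHDF2 RIP. The summed neuronal markers were lowest in the same 4 libraries, at 1061, 788, 1117 and 605 CPM in the order named, and the astrocyte sum was highest there, at 2524, 1557, 1193 and 1308 CPM. Their part in the spread of *Tuba4a* was not tested. Its log2 fold changes were 0.47 ± 0.60, -0.05 ± 0.60 and -0.30 ± 0.60 in YTHDF1, YTHDF2 and YTHDF3 RIP, with adjusted p of 0.536, 0.955 and 0.719. The intervals were wide. That of YTHDF3 RIP ran from -1.61 to 1.0 on the log2 scale. Within same-number pairs of Input and YTHDF3 RIP the difference was -0.22 when only those 6 libraries were fitted with the replicate number as a block (adjusted p = 0.0417), which passed the threshold on p but not the fold.

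The class II β-tubulins *Tubb2a* and *Tubb2b* kept close to Input in YTHDF1 and YTHDF3 RIP and were lower in YTHDF2 RIP without being called. *Tubb2a* was at 1399, 1053 and 1267 CPM in Input and at 709, 776 and 994 CPM in YTHDF2 RIP. Those groups did not overlap, and the log2 fold change was -0.58 ± 0.22 (adjusted p = 0.0563). In YTHDF1 RIP it stood at 1195, 1655 and 1588 CPM and in YTHDF3 RIP at 1205, 953 and 1079, both overlapping Input. The log2 fold changes were 0.25 ± 0.22 (95% interval -0.22 to 0.73) and -0.20 ± 0.22 (-0.67 to 0.27). *Tubb2b* was between 1162 and 1633 CPM in Input, 1074 and 2106 in YTHDF1 RIP, 739 and 982 in YTHDF2 RIP, and 988 and 1356 in YTHDF3 RIP. Its log2 fold changes were 0.09 ± 0.27, -0.70 ± 0.27 (adjusted p = 0.0614) and -0.29 ± 0.27. In YTHDF2 RIP both were called when any YTHDF1 RIP library was left out (adjusted p 0.0347 to 0.0397 for *Tubb2a* and 0.0218 to 0.0494 for *Tubb2b*), and *Tubb2a* also without YTHDF2 RIP replicate 3 (0.0445). Both genes were sensitive to the length correction. Without the trend, *Tubb2a* rose in YTHDF1 RIP (log2 fold change 0.81, adjusted p = 0.00745) and its YTHDF3 value turned to 0.54 (adjusted p = 0.0657), while *Tubb2b* turned to 0.17 in YTHDF3 RIP (adjusted p = 0.630).

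*Tubb3*, the class III β-tubulin used as a marker of neurons, and *Tubb4a*, a β-tubulin of brain, fell in YTHDF2 RIP but not in YTHDF1 RIP. *Tubb3* held 392, 225 and 477 CPM in Input and 82.4, 188 and 137 CPM in YTHDF2 RIP, groups that did not overlap. Its log2 fold change of -1.43 ± 0.43 (adjusted p = 0.0247) was the lowest among the members in that RIP. In YTHDF3 RIP it was at 193, 146 and 206 CPM, below every Input library, but the log2 fold change of -1.0 ± 0.43 was not called (adjusted p = 0.0836). It was called without YTHDF1 RIP replicate 1 (adjusted p = 0.0442), with no filter on low counts (0.0255) and with the 2 groups fitted alone (0.0368). In YTHDF1 RIP it ranged over 168, 552 and 322 CPM, on both sides of Input, with a log2 fold change of -0.07 ± 0.42. *Tubb4a* held 379, 253 and 217 CPM in Input and 99.98, 105 and 192 CPM in YTHDF2 RIP. The groups did not overlap, and the log2 fold change was -1.1 ± 0.36 (adjusted p = 0.0356). With the replicate number as a block in the fit of all libraries, the call on *Tubb4a* was lost (adjusted p = 0.0506), and with the block in a fit of Input and YTHDF2 RIP alone both *Tubb3* (adjusted p = 0.051) and *Tubb4a* (adjusted p = 0.0689) missed the threshold, which left 3 members called lower beside 17.8% of all genes and 0 higher beside 13.1%. Libraries of the same number in Input and YTHDF2 RIP did not all deviate together across genes (correlations of 0.178, -0.323 and -0.313), nor did those in Input and YTHDF1 RIP (0.0907, -0.267 and -0.322), so that in these fits the block joined libraries not shown to belong together. The same fit for YTHDF1 RIP called 1 member lower (18.2% of all genes) and 0 higher (14.5%). The call on *Tubb3* was lost without Input replicate 1 or 3 or YTHDF2 RIP replicate 1 or 3 (adjusted p 0.0585 to 0.0942), and that on *Tubb4a* without Input replicate 1 or 2 or YTHDF2 RIP replicate 1 or 2 (0.0583 to 0.13). *Tubb4a* was at 214, 373 and 501 CPM in YTHDF1 RIP, overlapping Input, and at 213, 168 and 129 CPM in YTHDF3 RIP. The log2 fold changes there were 0.36 ± 0.36 (adjusted p = 0.427) and -0.74 ± 0.36 (adjusted p = 0.128).

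*Tubb4b* and *Tubb5*, β-tubulins that most cell types express, were not called in any RIP. *Tubb4b* was one of the steadier members in Input, at 150, 124 and 132 CPM, and stood at 95.8, 136 and 204 CPM in YTHDF1 RIP, 76.0, 78.2 and 127 in YTHDF2 RIP and 102, 80.1 and 73.9 in YTHDF3 RIP. All YTHDF3 RIP libraries were below Input, with a log2 fold change of -0.66 ± 0.28 (adjusted p = 0.0842). It was called without YTHDF1 RIP replicate 1 (0.0494) or 3 (0.05) and with the 2 groups fitted alone (0.0175). In YTHDF2 RIP it was -0.53 ± 0.28 (adjusted p = 0.171) and in YTHDF1 RIP 0.10 ± 0.28 (adjusted p = 0.781). *Tubb5* ranged from 418 to 796 CPM in Input, 263 to 822 in YTHDF1 RIP, 267 to 521 in YTHDF2 RIP and 277 to 441 in YTHDF3 RIP, so every RIP overlapped Input. Its log2 fold changes were -0.17 ± 0.40, -0.63 ± 0.40 and -0.76 ± 0.40, with adjusted p of 0.750, 0.248 and 0.157.

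*Tubg1*, the γ-tubulin that nucleates microtubules, fell in all 3 RIPs and was the member with the smallest errors, although it was the least abundant, with 103 to 554 reads per library. It held 33.1, 28.7 and 29.3 CPM in Input. The YTHDF1 RIP libraries were at 11.9, 14.0 and 20.1 CPM, those of YTHDF2 RIP at 14.8, 16.0 and 19.2, and those of YTHDF3 RIP at 12.1, 11.1 and 9.62. Each RIP library was below each Input library. The log2 fold change was -0.98 ± 0.21 in YTHDF1 RIP (adjusted p = 0.00233), -0.87 ± 0.21 in YTHDF2 RIP (adjusted p = 0.00886) and -1.47 ± 0.21 in YTHDF3 RIP (adjusted p = 0.000276), or 1.97-, 1.82- and 2.78-fold lower. *Tubg1* was called lower under all 24 settings tried in YTHDF1 and in YTHDF3 RIP, counting the reported one, and under 22 of 24 in YTHDF2 RIP. The 2 settings without the call there were those with the length trend removed, where it was at -0.64 (adjusted p = 0.0565) without the replicate block.

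Input and YTHDF3 RIP libraries of the same number deviated together from their group means across genes, with correlations of 0.829, 0.528 and 0.804, so the comparison could be made within pairs. *Tubb2a* held between 85.2% and 90.5% of its Input level in the 3 pairs, *Tubb2b* between 77.5% and 85.1%, and *Tuba4a*, in spite of its spread over the cultures, between 79.9% and 86.0%. These 3 members stayed within a narrow band in every pair. *Tuba1a* held 26.6% to 40.4% and *Tuba1b* 28.4% to 43.3% of Input, and *Tubg1* held 32.8% to 38.6%. *Tubb3* (43.2% to 64.7%), *Tubb4a* (56.2% to 66.3%), *Tubb4b* (55.9% to 68.3%) and *Tubb5* (55.5% to 66.3%) lay between them. All 10 members were lower than the paired Input in 3 of 3 pairs. The share of all genes lower in 3 of 3 pairs was not computed, and members of near-identical pairs share reads. With the replicate number as a block in a fit of Input and YTHDF3 RIP alone, 7 of 10 members were called lower and 0 higher, where 32.3% and 36.2% of all genes were called. The 4 members added were *Tubb3* (log2 fold change -0.88, adjusted p = 1.59e-07), *Tubb4a* (-0.66, adjusted p = 3.03e-06), *Tubb4b* (-0.60, adjusted p = 3.19e-06) and *Tubb5* (-0.67, adjusted p = 3.26e-06). *Tuba4a* was not called because its fold was under the minimum, and *Tubb2a* and *Tubb2b* did not pass the threshold on p. With the same block in the fit of all 12 libraries the count was 3, where 3841 of 17126 genes were called lower. These percentages rest on the TMM scaling. When libraries were scaled by their totals alone, *Tubb2a* and *Tubb2b* were slightly above Input in YTHDF3 RIP (log2 fold changes 0.12 and 0.04), while the median of all genes moved up by 0.33.

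**Figure D3:**
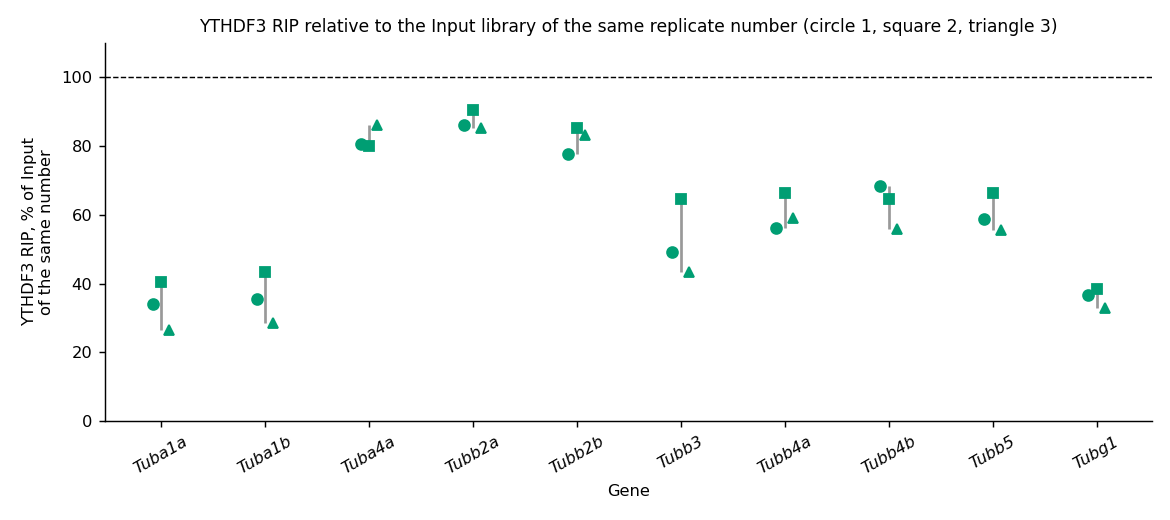
Level of each tubulin mRNA in YTHDF3 RIP as a percentage of the Input library of the same replicate number (shape), with a line over the range of the 3 pairs and a dashed line at 100%. All points lie below 100%. *Tubb2a*, *Tubb2b* and *Tuba4a* lie at 77.5% to 90.5%, and *Tuba1a*, *Tuba1b* and *Tubg1* at 26.6% to 43.3%.

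The RIPs were then set against each other, with a call at a difference of at least 1 on the log2 scale (a fold of 2) and an adjusted p of at most 0.05. Between YTHDF1 and YTHDF2 RIP, 2 members were called higher in YTHDF1 RIP, where 11.4% of all genes were, and 0 lower, where 6.10% were. *Tubb4a* was higher in YTHDF1 RIP by 1.46 ± 0.37 on the log2 scale (2.75-fold, adjusted p = 0.0122), with its 214, 373 and 501 CPM all above the 99.98, 105 and 192 CPM of YTHDF2 RIP. *Tubb3* was higher by 1.36 ± 0.43 (2.56-fold, adjusted p = 0.0373), but its groups overlapped, since YTHDF1 RIP replicate 1 (168 CPM) was below YTHDF2 RIP replicate 2 (188 CPM). *Tubb2a* (0.84 ± 0.22, adjusted p = 0.0143) and *Tubb2b* (0.79 ± 0.27, adjusted p = 0.0474) passed the threshold on p with groups that did not overlap, but not the fold. *Tubg1* was the 1 member with a negative value, -0.11 ± 0.21 (95% interval -0.58 to 0.35). These calls depended on single libraries. Without YTHDF1 RIP replicate 1 there were 3, with *Tubb2b* added (adjusted p = 0.0136). Neither gene was called without YTHDF1 RIP replicate 3 or without YTHDF2 RIP replicate 1. *Tubb3* was lost without YTHDF1 RIP replicate 2, without YTHDF2 RIP replicate 3 and without YTHDF3 RIP replicate 2 or 3, each of which left 1 call, and *Tubb4a* was lost without YTHDF2 RIP replicate 2, which also left 1. With libraries scaled by their totals alone 0 members were called.

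Between YTHDF1 and YTHDF3 RIP, 0 members were called by edgeR, where 10.8% of all genes were called higher and 3.63% lower in YTHDF1 RIP. All 10 values were positive, from 0.38 to 1.1 on the log2 scale, with a median of 0.69 beside 0.19 for all genes, and 3 had an unadjusted p below 0.05. *Tubb4a* came nearest, at 1.1 ± 0.36 (adjusted p = 0.0508), with all YTHDF1 RIP libraries above all YTHDF3 RIP libraries, though its 214 CPM in YTHDF1 RIP replicate 1 was next to the 213 CPM of YTHDF3 RIP replicate 1. DESeq2 called *Tubb4a*. Without Input replicate 1 or YTHDF2 RIP replicate 3 edgeR called 1 member, *Tubb4a*, and without YTHDF1 RIP replicate 1 it called 3, *Tuba1b*, *Tubb3* and *Tubb4a*. Between YTHDF2 and YTHDF3 RIP, 0 members were called by edgeR or DESeq2, where 3.95% of all genes were higher and 1.16% lower in YTHDF2 RIP, and 1 member (*Tubg1*, 0.61 ± 0.21, adjusted p = 0.0979) had an unadjusted p below 0.05. The 10 values lay between -0.42 and 0.61. All YTHDF2 RIP libraries were above all YTHDF3 RIP libraries for *Tubg1*. For *Tubb2b* all YTHDF2 RIP libraries were below all YTHDF3 RIP libraries (-0.41 ± 0.27, adjusted p = 0.375).

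Tubulin mRNAs are short, and in all 3 RIPs longer genes had higher values against Input. The exonic lengths of the members ran from 1610 to 3701 bases with a median of 2158, while the median of tested protein-coding genes was 4637, and 13.7% of these were shorter than the median member. Among protein-coding genes of over 1500 and up to 2000 bases, the class of *Tuba1a*, *Tuba1b*, *Tubb2a* and *Tubb3*, the median log2 fold change was -0.91 in YTHDF1, -0.59 in YTHDF2 and -0.90 in YTHDF3 RIP. Over 5000 bases it was 0.63, 0.34 and 0.49. Beside its own class, *Tubb2a* was high in YTHDF1 and YTHDF3 RIP (0.25 and -0.20) and level in YTHDF2 RIP (-0.58), and *Tuba1a* was near the class median in YTHDF1 RIP and below it in the others. *Tubg1*, in the class of over 2000 and up to 3000 bases with medians of -0.47, -0.26 and -0.43, was below the class median in all 3. The part of length in the members' values was not tested beyond the fit with the trend removed.

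**Figure D4:**
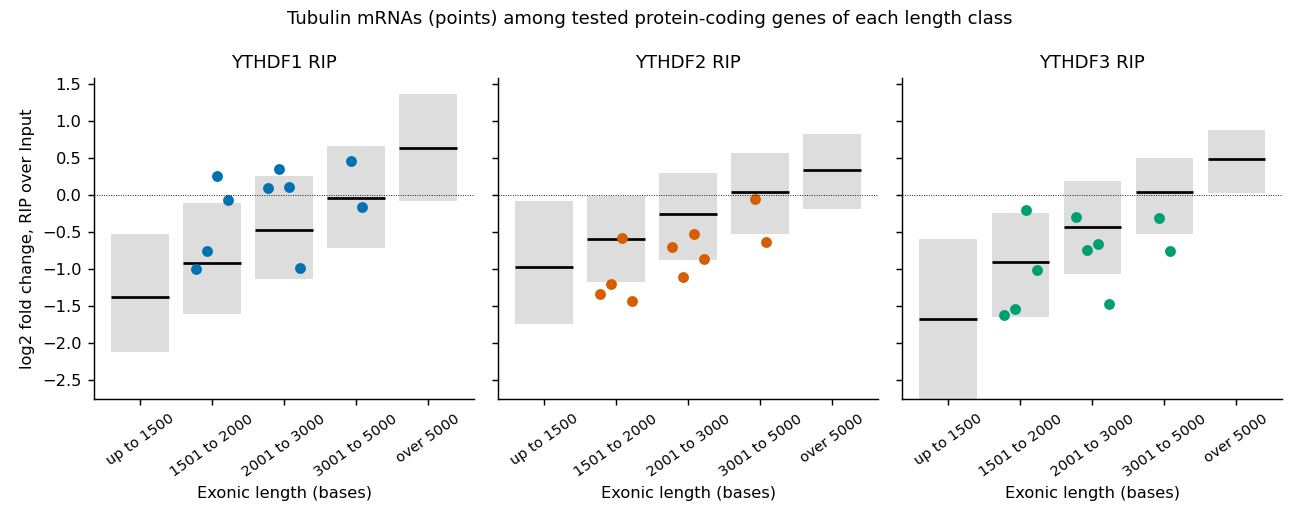
Log2 fold change over Input of the 10 tubulin mRNAs (points) beside all tested protein-coding genes in 5 classes of exonic length, for each RIP. Black lines are class medians and grey bars run from the first to the third quartile, and the medians climb from -1.38, -0.97 and -1.68 in the shortest class to 0.63, 0.34 and 0.49 in the longest.

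The letters GGACT, the commonest form of the m6A consensus, were counted in 1 principal transcript per gene, on the transcribed strand. They occurred in 9 of 10 members, with *Tuba1b* the exception, and in 90.8% of the 3702 tested transcripts of the same length range (1598 to 2840 bases). *Tuba4a* held 7 copies, of which 5 followed the stop codon, or 2.46 per kilobase, more than 95.2% of tested protein-coding genes. In the other 9 members no copy followed the stop codon. *Tubb3* and *Tubb4b* held 3 each, *Tubb2a*, *Tubb2b* and *Tubb5* 2 each, and *Tuba1a*, *Tubb4a* and *Tubg1* 1 each, and the median over the same length range was 2. A count of letters is a description of the sequence and does not locate m6A.

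In the make-up of the tubulin counts, *Tuba1a* had a smaller and class II β-tubulin a larger mean share in every RIP than in Input. *Tuba1a* supplied 29.6% ± 2.44 (SD, n = 3) of the 10 genes' counts in Input, 16.7% ± 4.90 in YTHDF1, 22.5% ± 3.12 in YTHDF2 and 17.3% ± 0.913 in YTHDF3 RIP. *Tubb2a* supplied 16.6% ± 2.09 in Input and 24.8% ± 5.80, 21.2% ± 3.30 and 25.4% ± 1.11 in the 3 RIPs. *Tubb2b* went from 19.2% ± 1.09 to 24.7% ± 2.66, 22.6% ± 1.39 and 27.7% ± 2.36. Such shares do not depend on the scaling of the libraries, and no test was run on them. They count shared reads in full for each gene, as does the sum of the 10 genes. Summed over the 10 genes, the level was 7579 ± 1671 CPM in Input, 6345 ± 2399 in YTHDF1 RIP, 3954 ± 785 in YTHDF2 RIP and 4256 ± 524 in YTHDF3 RIP (SD, n = 3). These sums rest on the TMM scaling. As a share of all counts, without that scaling, the 10 genes made up 0.759% ± 0.178 in Input. In YTHDF1, YTHDF2 and YTHDF3 RIP it was 0.468% ± 0.136, 0.415% ± 0.0853 and 0.534% ± 0.0724, so YTHDF1 RIP was then below YTHDF3 RIP.

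**Figure D5:**
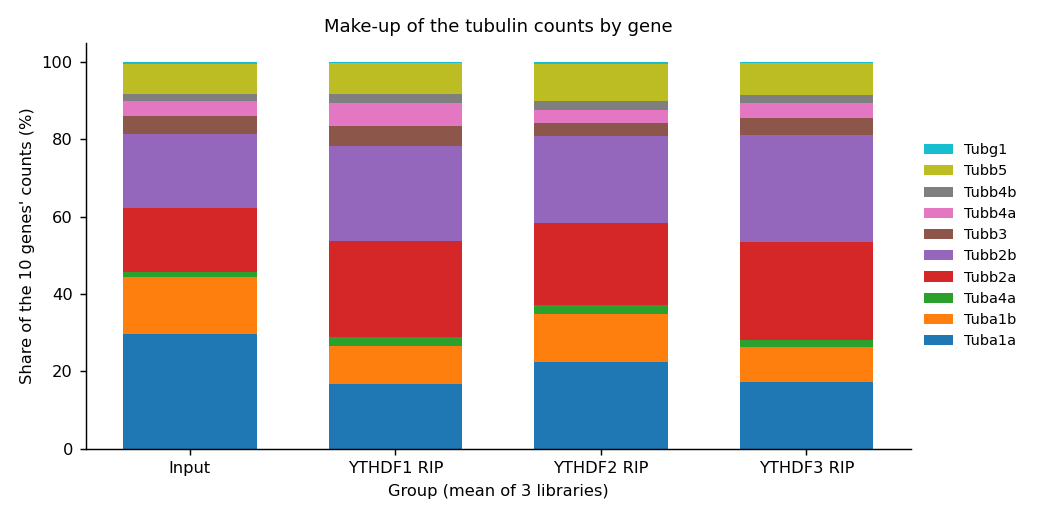
Share of each gene in the counts of the 10 tubulin genes, as the mean of 3 libraries per group (stacked bars sum to 100%). *Tuba1a* shrinks from 29.6% in Input to 16.7%, 22.5% and 17.3% in the RIPs, and *Tubb2a* grows from 16.6% to 24.8%, 21.2% and 25.4%.

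Across the 12 libraries, 9 of 10 members moved with the mean of the others (Pearson correlations of 0.661 to 0.873 on log2 CPM, n = 12), and *Tuba4a* did not (0.0149). These libraries share cultures, scaling and, for the near-identical pairs, reads, and the values are given as a description. Among pairs of members that share no 50-base stretch, *Tubb3* and *Tubb2b* had the closest profiles (0.965). YTHDF1 RIP replicate 1 stood farthest from its group, with a mean deviation of the members of -0.59 on the log2 scale, and was below the group mean in 9 of 10 members. Of 9932 other protein-coding genes with a mean of at least 100 counts, the 5 whose profile was most like the mean of the members were *Fh1* (0.952), *Impdh1* (0.946), *Gps1* (0.945), *Bdh1* (0.927) and *Gnas* (0.926).

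Of 10 further tubulin genes, 6 had enough reads to be tested, and 2 were called lower in each RIP and 0 higher. *Tuba1c*, which shares most of its coding sequence with *Tuba1a* and *Tuba1b*, fell in YTHDF2 RIP (-1.15 ± 0.39, adjusted p = 0.0415) and YTHDF3 RIP (-1.48 ± 0.40, adjusted p = 0.0118). *Tubg2*, the second γ-tubulin gene, fell in all 3 (-1.78 ± 0.43, -1.30 ± 0.43 and -1.90 ± 0.43), and *Tubd1*, which encodes δ-tubulin of centrioles, fell in YTHDF1 RIP (-1.15 ± 0.24). The medians of the list were -0.84, -0.14 and -0.89. Of 3 tubulin pseudogenes, *Tubb2a-ps2* was called lower in YTHDF2 RIP (-0.91 ± 0.22), where it shares reads with *Tubb2a* and *Tubb2b*.

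The genes that fold, nucleate, modify or bind tubulin did not share 1 course. Over all tested genes, 27.2%, 15.7% and 16.4% were called higher and 25.8%, 19.0% and 23.0% lower in YTHDF1, YTHDF2 and YTHDF3 RIP. Of protein-coding genes up to 1500 bases, 6.63%, 3.13% and 1.93% were higher and 60.7%, 45.1% and 65.3% lower. Over 5000 bases, 45.3%, 26.2% and 32.1% were higher and 10.1%, 7.74% and 5.77% lower. The part of length in the lists was not tested. Of 14 subunits of the chaperonin and prefoldin complexes, which fold newly made tubulin and actin, 6, 6 and 11 were called lower in YTHDF1, YTHDF2 and YTHDF3 RIP and 0 higher, with medians of -0.54, -0.61 and -0.97. The lowest were *Pfdn4* in YTHDF1 RIP (-2.25 ± 0.38), *Pfdn1* in YTHDF2 RIP (-1.53 ± 0.38) and *Pfdn5* in YTHDF3 RIP (-2.94 ± 0.45). Of 7 genes of tubulin cofactors and related proteins, some of which assemble the αβ dimer, 2, 3 and 1 were called higher and 2, 2 and 3 lower (medians -0.48, 0.48 and -0.24). *Tbcb* was the lowest in every RIP (-1.62, -1.14 and -2.11), and the highest was *Tbcel* in YTHDF1 RIP (1.26) and *Tbcd* in YTHDF2 and YTHDF3 RIP (0.99 and 0.70). Of 8 components of the γ-tubulin ring complex, the partners of *Tubg1*, 1, 2 and 3 were called higher and 3, 2 and 2 lower (medians -0.41, 0.20 and 0.47). *Tubgcp6*, its largest subunit, was the highest in every RIP (1.71 ± 0.18, 1.82 ± 0.18 and 1.46 ± 0.18), and the small subunits *Mzt1* (-1.39 in YTHDF1 RIP) and *Mzt2* (-1.18 and -1.35 in YTHDF2 and YTHDF3 RIP) were the lowest.

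Of 24 tested tubulin-modifying enzymes and their subunits, 4, 3 and 3 were called higher and 9, 7 and 6 lower (medians 0.09, 0.08 and 0.12). The highest were *Vash2*, a tubulin carboxypeptidase, in YTHDF1 RIP (1.72 ± 0.46) and *Ttll4*, a polyglutamylase, in YTHDF2 and YTHDF3 RIP (1.46 ± 0.22 and 1.13 ± 0.22), and the lowest were *Nicn1* (-2.11 ± 0.26), *Tpgs2* (-1.87 ± 0.32) and *Svbp* (-1.54 ± 0.49), which encode non-catalytic partners of such enzymes, in YTHDF1, YTHDF2 and YTHDF3 RIP in turn. Microtubule-associated protein genes, which stabilise and space microtubules, made up a list of 11, of which 7, 2 and 6 were called higher and 0, 2 and 0 lower, with medians of 1.01, 0.11 and 0.53. The highest among those called were *Map1b* in YTHDF1 RIP (3.46 ± 0.33), *Map6* in YTHDF2 RIP (0.94 ± 0.22) and *Map1a* in YTHDF3 RIP (1.52 ± 0.43), and *Dcx* fell in YTHDF2 RIP (-1.96 ± 0.67). Of the cytoplasmic actins, the other main cytoskeletal subunits, *Actg1* was called lower in all 3 RIPs (-0.93 ± 0.27, -1.58 ± 0.28 and -1.34 ± 0.28) and *Actb* in YTHDF2 and YTHDF3 RIP (-1.48 ± 0.38 and -1.95 ± 0.39), not in YTHDF1 RIP (0.32 ± 0.38). All these lists are read beside the shares of all genes called given above.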

How the data were processed

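RIP-seq was measured in 12 libraries of cultured mouse hippocampal neurons, grouped by the labelled RIP antibody. The deposited counts were made by the authors, per the labels and the file headers, with UMI-tools 1.1.1, cutadapt 3.4, STAR 2.7.7a (mm10) and featureCounts 2.0.1 on Ensembl 97 exons of GRCm38, with reads assigned by strand and counted in full for every gene and location they matched, so near-identical genes share reads. The methods give paired reads of 50 bases from a stranded total RNA kit with molecular identifiers. Mean signal, fold changes and p-values of each RIP over Input from the authors' DESeq2 comparisons were deposited too. From the YTHDF1 table only identifiers, gene names and gene types were read, and its mean signal column and all fold changes and p-values were not used. Names were found for 55400 of 55573 genes, the remainder from GENCODE M21.

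Counts were tested with edgeR 4.0.16 (quasi-likelihood, TMM scaling, 4 groups, no block) on the 17126 genes whose normalized count averaged 10 or more. The spread of each gene was estimated over all 4 groups, so each SE and p also draws on libraries outside its comparison. Log2 CPM used a prior count of 2. A call needed an adjusted p of at most 0.05 and a log2 fold change of at least 0.32 in size against Input or 1 between RIPs. Library totals of 6020072 to 38909592 set the counting precision, and with 3 libraries per group the spread between libraries (biological coefficient of variation 0.323) set the errors.

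Alternatives were DESeq2 1.42.0, its size factors, library size alone, TMM over protein-coding genes, no filter or a minimum of 50, a replicate block, a loess length correction (span 0.3), 2-group fits, summed near-identical genes and each library left out. Shared stretches, coding ends and motifs came from GENCODE M21 transcripts (Ensembl IDs; principal transcript, longest on ties). The methods describe 1 lysate pool per replicate for all RIPs and their input. Whether the labelled numbers mark it was checked by correlating deviations from group means across genes: 0.829, 0.528 and 0.804 for Input with YTHDF3 RIP, but 0.0907, -0.267 and -0.322 with YTHDF1 RIP and 0.178, -0.323 and -0.313 with YTHDF2 RIP. The numbers thus paired Input with YTHDF3 RIP and were not shown to pair it with the others. Across numbers, Input replicate 3 correlated at 0.467 with YTHDF1 RIP replicate 2 and at 0.560 with YTHDF2 RIP replicate 2. Other cross-number values of Input with these 2 RIPs were at most 0.223. Whether the numbers of these RIPs follow those of Input was not settled, and nothing was re-paired. The members and gene lists were chosen with earlier results of these data known. All 10 members are named whatever their values, as are the 5 most alike genes and, for each other list described and each RIP, the called genes with the highest and lowest log2 fold change. *Tuba1c*, *Tubd1* and *Tubg2* in the report were named as the only called genes of their list, and *Tubb2a-ps2* likewise. *Tubb4b-ps1*, *Tuba1c* and *Tubg2* are named for shared sequence. Some sequences and 1 gene list are not reported here.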

Additional observations from a re-analysis of the deposited data

Results flagged for a closer look

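A closer look was called for where the level of a member differed between RIPs by the test of the difference itself, since its change against Input then differs between the proteins. *Tubb4a* was higher in YTHDF1 than in YTHDF2 RIP by 1.46 on the log2 scale, with all libraries of the groups apart, and *Tubb3* by 1.36, with groups that overlapped. The adjusted p of *Tubb4a* (edgeR or DESeq2, Benjamini-Hochberg) ran from 1.23e-05 to 0.0614 over 22 settings, counting the reported one, and the call was made in 18. That of *Tubb3* ran from 6.58e-05 to 0.147 and the call was made in 14.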

How the results depend on the processing

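The counts of tubulin mRNAs called were 1, 5 and 3 in YTHDF1, YTHDF2 and YTHDF3 RIP against Input and 2, 0 and 0 for YTHDF1 against YTHDF2, YTHDF1 against YTHDF3 and YTHDF2 against YTHDF3 RIP. *Tubg1* was called lower in YTHDF1 and YTHDF3 RIP under every alternative run. In YTHDF1 RIP 2 members were called lower with DESeq2, with TMM over protein-coding genes, with no filter and with a minimum mean count of 50. Library size alone gave 3. Over all genes, 4816 and 5520 of 17126, 4590 of 44478, 3951 of 13016 and 6219 of 17126 were lower in these fits in turn. The reported fit had 4414 of 17126. With the length trend removed the count was 2 as well, but 1 was higher (*Tubb2a*) and 1 lower (*Tubg1*). In YTHDF2 RIP the count was 7 with DESeq2, with TMM over protein-coding genes and with a minimum of 50. Over all genes, 3643 of 17126, 3766 of 17126 and 2882 of 13016 were lower there. It was 6 with DESeq2 size factors and with library size alone (3376 and 3052 of 17126 genes lower) and with 2 groups alone (3695 of 16037). With no filter the count was 5 (3646 of 44478), and the reported fit had 3247 of 17126. With the length trend removed it was 0 in YTHDF2 RIP and 1 in YTHDF3 RIP, and the same 3 counts (2, 0 and 1) came with the replicate block added. In YTHDF3 RIP the count was 4 with no filter, where *Tubb3* was added (edgeR adjusted p = 0.0255), and 5 in a fit of 2 groups alone. Over all genes, 3793 of 44478 and 4301 of 17504 were lower there. Between YTHDF1 and YTHDF2 RIP the count was 0 with library size alone and 1 with TMM over protein-coding genes, and between YTHDF1 and YTHDF3 RIP 1 with DESeq2. Of 17126 genes, 1068, 1597 and 1859 were called higher in YTHDF1 RIP in these fits in turn. Except where a value shows it, the cause of these changes was not tested.

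The replicate block in the fit of all 12 libraries gave 1, 4 and 3 members called against Input and 2, 0 and 0 between RIPs. Of 17126 genes, 4376, 3120 and 3841 were lower against Input in that fit. In fits of 2 groups alone with the replicate block the counts were 1, 3 and 7. Among calls on members, the block in the fit of all libraries ended that of *Tubb4a* in YTHDF2 RIP and changed no other.

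When each library was left out in turn, the counts ran from 1 to 3, from 1 to 7 and from 1 to 5 against Input, from 0 to 3 for YTHDF1 against YTHDF2 RIP, from 0 to 3 for YTHDF1 against YTHDF3 RIP, and stayed at 0 for YTHDF2 against YTHDF3 RIP. Over all genes, those lower against Input ran from 3773 to 5136, from 2412 to 3868 and from 2991 to 4147, with 16947 to 17287 genes tested. Those higher in YTHDF1 RIP ran from 1530 to 2123 against YTHDF2 RIP and from 1189 to 2036 against YTHDF3 RIP. Log2 fold changes that took both signs in these fits, none of them called in the reported fit, were in YTHDF1 RIP *Tuba4a* (-0.061 to 0.85), *Tubb2b* (-0.27 to 0.30), *Tubb3* (-0.65 to 0.27), *Tubb4a* (-0.060 to 0.64), *Tubb4b* (-0.32 to 0.34) and *Tubb5* (-0.71 to 0.16), and *Tuba4a* in YTHDF2 RIP (-0.45 to 0.33) and YTHDF3 RIP (-0.68 to 0.080). For YTHDF1 against YTHDF2 RIP they were *Tuba1a* (-0.30 to 0.72), *Tuba1b* (-0.16 to 0.82), *Tubb5* (-0.063 to 0.79) and *Tubg1* (-0.44 to 0.042). For YTHDF1 against YTHDF3 RIP they were *Tuba1a* (-0.083 to 1.0), *Tubb2b* (-0.035 to 0.59) and *Tubb5* (-0.0048 to 0.92), and for YTHDF2 against YTHDF3 RIP *Tuba4a* (-0.15 to 0.63), *Tubb4b* (-0.15 to 0.28) and *Tubb5* (-0.15 to 0.34).

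Other settings turned the sign of members that were not called. In YTHDF1 RIP, *Tubb2b* and *Tubb4b* turned to -0.16 and -0.16 with TMM over protein-coding genes, to -0.032 and -0.022 with a minimum of 50, to -0.032 and -0.015 with 2 groups alone, and to -0.057 and -0.064 with the replicate block added to that. Without the length trend, *Tubb3* turned to 0.36 in YTHDF1 RIP, *Tubb2a* and *Tubb2b* to 0.54 and 0.17 in YTHDF3 RIP, and, for YTHDF2 against YTHDF3 RIP, *Tuba1a*, *Tubb4b* and *Tubb5* to -0.019, -0.13 and -0.015. With the replicate block as well, these were 0.28, 0.54, 0.16, -0.068, -0.18 and -0.054, and *Tuba1b* was at -0.0025. With no filter, *Tubb4b* and *Tubb5* turned to -0.093 and -0.11 for YTHDF2 against YTHDF3 RIP. With library size alone, *Tubb2a*, *Tubb2b*, *Tubb4a* and *Tubb4b* turned to -0.16, -0.34, -0.079 and -0.33 in YTHDF1 RIP, and *Tubb2a* and *Tubb2b* to 0.12 and 0.038 in YTHDF3 RIP. For YTHDF1 against YTHDF2 RIP, *Tuba1a*, *Tuba1b* and *Tubb5* turned to -0.20, -0.088 and -0.074. For YTHDF1 against YTHDF3 RIP, *Tuba1a*, *Tuba1b*, *Tubb2a*, *Tubb2b*, *Tubb5* and *Tubg1* turned to -0.16, -0.0039, -0.29, -0.38, -0.20 and -0.25. For YTHDF2 against YTHDF3 RIP, *Tuba4a*, *Tubb4b* and *Tubb5* turned to -0.00063, -0.13 and -0.13.

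Scaling moved all genes together. With library size alone the median over all genes shifted by -0.40 (log2) in YTHDF1 RIP and 0.33 in YTHDF3 RIP, and the higher share of all calls went from 51.4% to 33.2% and from 41.7% to 61.4%. With TMM over protein-coding genes it went from 51.4% to 40% in YTHDF1 RIP. *Tubg1* had the fewest reads, 103 to 554 per library, and the smallest standard errors.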
